A study of Homo sapiens with 8 samples.

Results

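The genes described here are 10 components of the machinery with which sympathetic and chromaffin cells make, store and retrieve catecholamines. They were taken by symbol from 25369 genes listed in tables of read counts and RPKM values, and all 10 were present. They are the synthesis enzymes TH, GCH1, DDC and DBH, the transporters SLC18A1, SLC18A2 and SLC6A2, and the granule proteins CHGA, CHGB and SCG2. Poly(A) RNA came from CHP212, a human neuroblastoma cell line, either unmodified (WT) or with FAM193A knocked out (KO). Cells of both genotypes were kept for 12 h with 10 uM Nutlin-3a or with DMSO at 0.2% as the vehicle. Nutlin-3a inhibits MDM2, which marks p53 for degradation. Each of the 4 combinations of genotype and agent was represented by 2 separate biological replicates, and every sample shared the parental line and the medium. The labels name 1 KO population, and they do not say whether it is a clone. An effect of losing FAM193A and any other property of that population cannot be told apart, and p values between genotypes measure the spread between replicates only.

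Catecholamines are made from tyrosine. TH converts tyrosine to L-DOPA in the rate-limiting step and needs the cofactor tetrahydrobiopterin, for which GCH1 catalyses the first step. DDC turns L-DOPA into dopamine, vesicular transporters carry dopamine into granules, and DBH inside the granule converts it to noradrenaline. SLC6A2 brings released noradrenaline back into the cell. Chromogranins and secretogranins are acidic proteins that pack the granule core beside the amines. In neuroblastoma these products are the basis of catecholamine metabolite and chromogranin A tests, and the whole set marks the sympathoadrenal lineage.

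The libraries held between 28390405 and 38010075 reads, and 15879 genes passed a filter on low counts and were tested. Of the 10 genes, 8 were tested, and DDC and SLC18A1 had too few reads. Levels are given in CPM, read counts relative to the TMM-scaled library size, as mean ± SD with n = 2. FAM193A itself had 1138 to 1529 reads in the 4 WT libraries and 1240 to 1548 in the 4 KO libraries. Its transcript was 1.26-fold lower in KO cells under DMSO (edgeR adjusted p = 0.000999), and a gene-level count does not show an edit that leaves the transcript in place. CDKN1A, a p53 target, rose 41.9-fold with Nutlin-3a in WT and 34.8-fold in KO cells. All 8 sympathetic neuroblastoma markers exceeded 1 CPM in every group, with a summed level of 3130 to 4936 CPM per library. Of 8 mesenchymal or fibroblast markers, 7 or 8 exceeded 1 CPM in each group, with sums of 3962 to 5200 CPM, while Schwann, epithelial, blood, liver and islet markers summed to at most 13.6 CPM. In 3 libraries reads of unrelated tissues appeared. WT DMSO replicate 2 and KO Nutlin-3a replicate 2 held 44 and 32 reads of CEACAM7, a gut epithelial gene with 0 reads in the other 6 libraries, and WT Nutlin-3a replicate 1 held 232 reads of LRP2, which had at most 1 read elsewhere. The part of those reads in the results below was not tested, and each comparison is also given without these 3 libraries. That fit leaves 1 library in 3 of the groups, takes the spread from the KO DMSO pair alone and assumes that the lone libraries vary like it.

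Promoter sequences are shown for the genes for which the RefSeq table held one and whose data bear on a shared element. The table covered 4 of the 10 genes, namely DDC, DBH, SLC18A2 and CHGA. Each sequence below is the 250 bases before the transcription start in GRCh38.p14, on the plus strand, which is the strand of these 3 genes. Capitals mark a cAMP response element core, searched as TGACGTC on both strands and printed as its full palindrome where the next base completes it, and a TATAA box.

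CHGA, chr14:92922900-92923149: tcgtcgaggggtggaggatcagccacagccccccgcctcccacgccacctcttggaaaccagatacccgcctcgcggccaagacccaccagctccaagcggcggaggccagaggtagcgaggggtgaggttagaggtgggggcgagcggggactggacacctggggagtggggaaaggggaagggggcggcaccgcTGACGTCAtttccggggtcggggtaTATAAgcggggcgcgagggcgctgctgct
DBH, chr9:133636113-133636362: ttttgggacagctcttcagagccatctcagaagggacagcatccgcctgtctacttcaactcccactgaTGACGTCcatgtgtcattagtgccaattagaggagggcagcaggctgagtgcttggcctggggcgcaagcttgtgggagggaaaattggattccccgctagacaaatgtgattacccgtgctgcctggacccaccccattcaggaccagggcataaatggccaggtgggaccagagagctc
SLC18A2, chr10:117240864-117241113: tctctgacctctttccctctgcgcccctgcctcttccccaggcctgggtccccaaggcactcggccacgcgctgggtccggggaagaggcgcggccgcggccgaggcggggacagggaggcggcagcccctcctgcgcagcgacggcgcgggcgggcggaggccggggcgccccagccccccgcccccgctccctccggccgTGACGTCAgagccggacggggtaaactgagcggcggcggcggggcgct

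The TGACGTC letters lay at -181 to -175 in DBH, and the palindromes spanned -54 to -47 in CHGA and -48 to -41 in SLC18A2, counted back from the start. The TATAA box stood at -29 to -25 in CHGA and was not in the windows of DBH and SLC18A2. Among 35116 RefSeq promoter windows of this length, 1095 or 3.12% held TGACGTC on either strand and 18.9% held TATAA. DDC, with 2 entries, held neither. Of the 3 genes that hold TGACGTC, CHGA and DBH were far higher in KO cells, and SLC18A2 stayed at a trace level in every group. The part of the element in these levels was not tested.

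Per transcript length, the order of the genes differed between genotypes. In WT DMSO cells TH stood first at 243 ± 0.470 RPKM (SD, n = 2), a level above 99.1% of the listed genes. SCG2 followed at 76.9 ± 1.26 RPKM and GCH1 at 5.98 ± 0.0365 RPKM, and SLC6A2 came next at 0.614 ± 0.0389 RPKM. CHGA and DBH, at 0.218 and 0.178 RPKM, overlapped between libraries, and the other genes lay below 0.1 RPKM. In KO DMSO cells SCG2 led at 29.5 ± 3.32 RPKM, followed by CHGA at 15.7 ± 0.315, DBH at 11.3 ± 0.637, TH at 5.47 ± 0.433 and GCH1 at 3.11 ± 0.367 RPKM. Each of these 5 exceeded the next in both libraries, and TH now stood above 65.5% of the listed genes. With Nutlin-3a, TH and SCG2 still led in WT cells at 121 and 62.6 RPKM. In KO Nutlin-3a cells SCG2 was again first at 37.8 ± 1.17 RPKM, while DBH and CHGA overlapped at 12.0 ± 2.12 and 11.2 ± 1.53 RPKM.

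**Figure D1:**
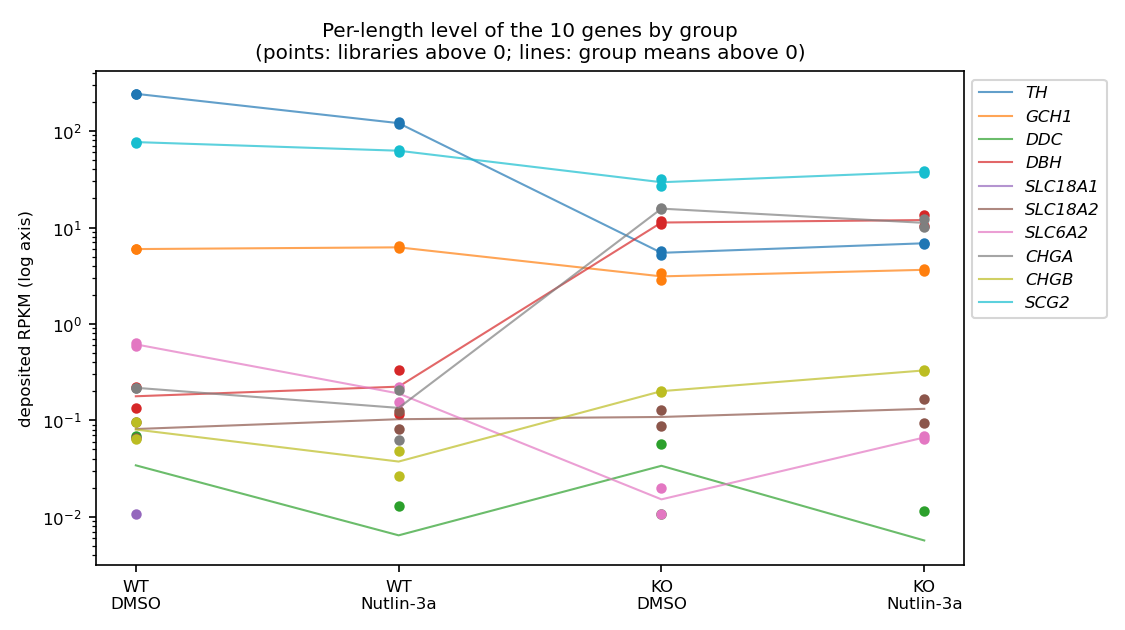
Deposited RPKM of the 10 genes on a log axis, by group; points are libraries with a value above 0 and lines join group means above 0 as a guide to the eye only. TH falls from 243 RPKM in WT DMSO to 5.47 RPKM in KO DMSO cells while DBH and CHGA climb from 0.178 and 0.218 RPKM to 11.3 and 15.7 RPKM.

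KO and WT cells were first compared under DMSO, the contrast that bears on the loss of FAM193A without p53 activation. The genes split in opposite directions, with TH, GCH1, SLC6A2 and SCG2 lower and DBH, CHGA and CHGB higher in KO cells. Thus 4 of the 8 tested genes fell and 3 rose, where over all tested genes 30.1% were lower and 31.4% higher and 61.5% were called in either direction. The 2 groups did not overlap for 7 of the 8, beside 82.4% of all tested genes. The counts therefore say little about these genes as a set. The median log2 fold change of the 8 genes was -0.32 with a range from -5.54 to 6.10, beside a median of 0.01 over all tested genes.

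TH, the rate-limiting enzyme, had 14512 and 13684 reads in WT DMSO libraries and 347 and 419 in KO DMSO libraries. The KO libraries were low in both replicates and the groups lay far apart. The level went from 479 ± 2.54 to 10.3 ± 0.829 CPM, a log2 fold change of -5.54 (SE 0.06, edgeR adjusted p = 8.7e-21). GCH1, which starts the synthesis of the TH cofactor, had 544 and 516 reads in WT and 294 and 375 in KO DMSO libraries. Its level halved without overlap, from 18.0 ± 0.171 to 8.97 ± 1.07 CPM (log2 fold change -1.002, SE 0.10, edgeR adjusted p = 6.8e-08).

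DBH, the granule enzyme that makes noradrenaline, moved the other way from TH. It had 19 and 11 reads in WT DMSO and 1051 and 1229 reads in KO DMSO libraries. WT cells were close to the limit of the assay at 0.505 ± 0.168 CPM, and KO cells held 30.6 ± 1.77 CPM, a log2 fold change of 5.90 (SE 0.26, edgeR adjusted p = 3.2e-09). An antisense gene, DBH-AS1, overlaps DBH and had 43 and 49 reads in WT DMSO and 121 and 108 in KO DMSO libraries. The sources used here do not say whether reads were counted by strand. DDC, the enzyme between TH and DBH, was a trace transcript throughout, with 0 and 5 reads in untreated WT, 1 and 0 in treated WT, 5 and 1 in untreated KO and 1 and 0 in treated KO libraries. It was not tested, and it overlaps FIGNL1 on the same strand, a gene with 501 to 2037 reads per library.

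Among the transporters, SLC6A2, the noradrenaline reuptake carrier, had 107 and 92 reads in WT DMSO libraries but only 2 and 4 in KO DMSO libraries. That is 3.37 ± 0.202 against 0.0798 ± 0.0338 CPM, a log2 fold change of -5.32 (SE 0.41, edgeR adjusted p = 2.0e-09). SLC18A2, the vesicular monoamine transporter of neurons, had 8 and 11 reads in untreated WT, 15 and 9 in treated WT, 12 and 19 in untreated KO and 13 and 21 in treated KO libraries. These ranges overlapped in every pairing of groups that was compared, and none of the 5 comparisons called the gene. Under DMSO its log2 difference between genotypes was 0.36 with a 95% interval from -0.71 to 1.44. SLC18A1, the vesicular transporter of endocrine cells, had 1 read in WT DMSO replicate 1 and 0 in the other 7 libraries. With 3 reads over a group as the limit that a count of 0 allows, its level was below 0.0516 CPM in WT Nutlin-3a, 0.0404 CPM in KO DMSO and 0.0428 CPM in KO Nutlin-3a cells, limits that cover counting error only.

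The granule proteins did not move as a block. CHGA, the chromogranin used as a neuroendocrine marker, had 14 and 13 reads in WT DMSO libraries and 1113 and 1236 in KO DMSO libraries. The 2 groups were separated by a wide gap, from 0.458 ± 0.00255 to 31.6 ± 0.678 CPM (log2 fold change 6.10, SE 0.19, edgeR adjusted p = 5.2e-15). SCG2, the precursor of secretoneurin, went the other way, with 6108 and 5878 reads in WT and 2883 and 2653 in KO DMSO libraries. Both KO values were lower, at 74.7 ± 8.31 against 204 ± 4.01 CPM (log2 fold change -1.45, SE 0.06, edgeR adjusted p = 2.2e-12). CHGB, a second chromogranin, stayed scarce, with 8 and 5 reads in WT and 19 and 20 in KO DMSO libraries. Its log2 fold change was 1.24 (SE 0.49, edgeR adjusted p = 0.0348). Because CHGB passed the low-count filter only through its KO libraries, its place in the count of higher genes is no support. That call was also lost with DESeq2 (adjusted p = 0.139) and without WT DMSO replicate 1, WT DMSO replicate 2 or either replicate of KO DMSO or KO Nutlin-3a, where edgeR adjusted p ran from 0.0601 to 0.201.

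Without the 3 libraries that carried reads of other tissues, the genotype differences under DMSO were of similar size. The log2 fold change was then -5.53 for TH, -0.99 for GCH1, 5.61 for DBH, -5.38 for SLC6A2, 6.09 for CHGA and -1.43 for SCG2, all called by edgeR, and 0.99 for CHGB, which was not called (edgeR adjusted p = 0.197). The mesenchymal marker sum was 3962 to 4062 CPM in WT DMSO and 4143 to 4391 CPM in KO DMSO libraries. The sympathetic marker sum was 4527 to 4558 and 4876 to 4936 CPM in the same groups. The part of cell state in the differences was not tested, and in such bulk samples fewer cells that express a gene and less RNA per cell cannot be told apart.

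**Figure D2:**
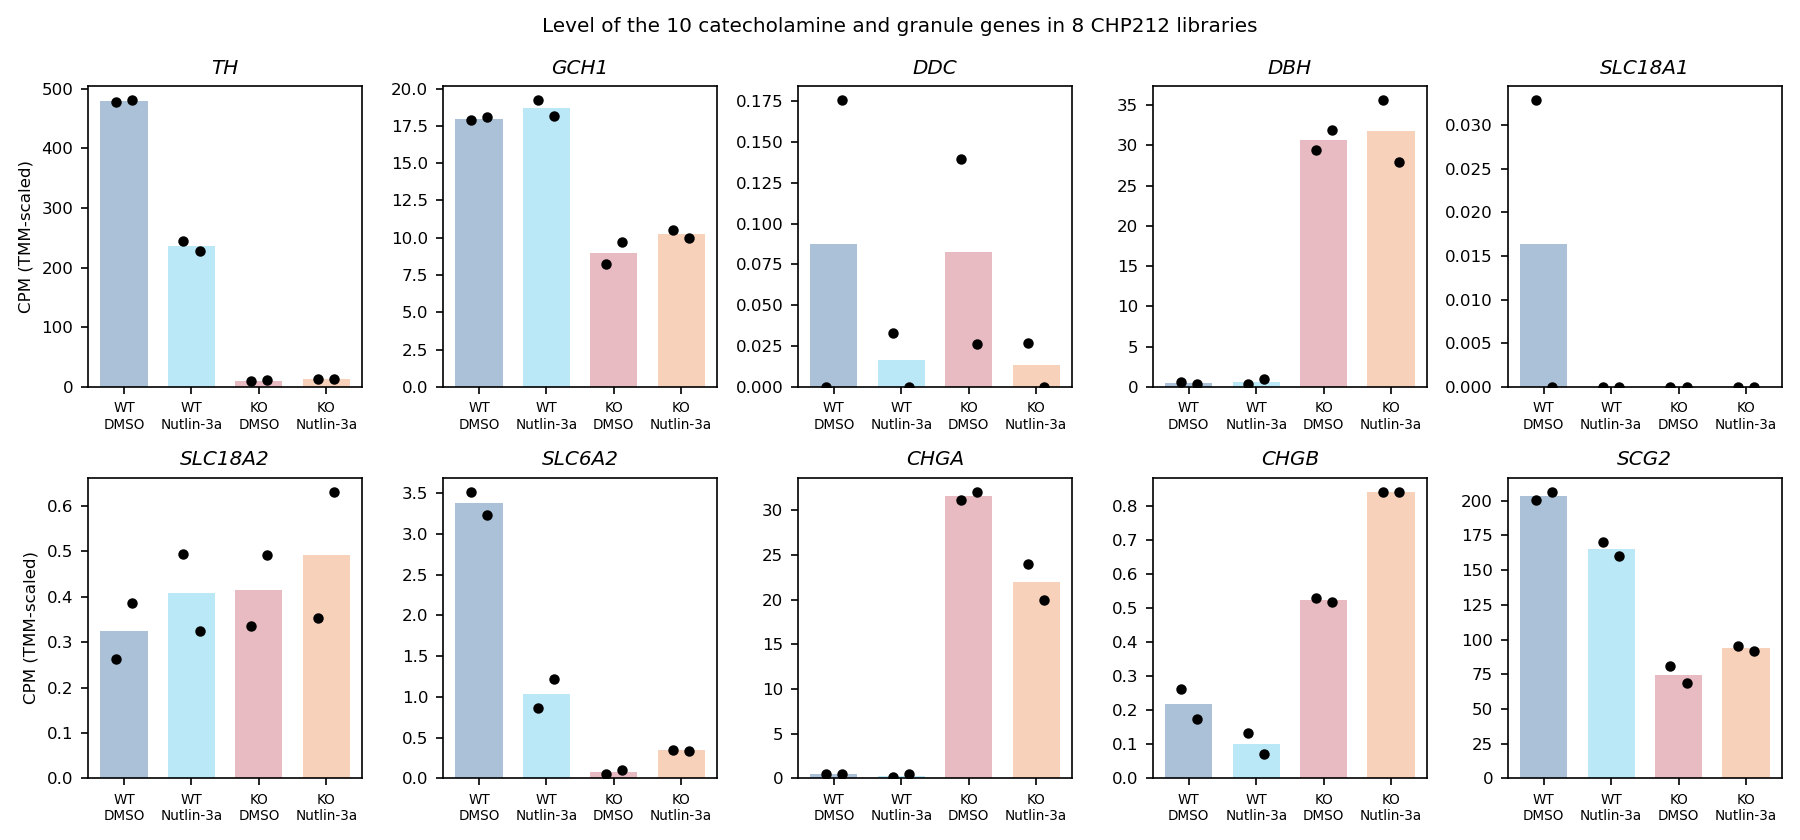
TMM-scaled CPM of each gene on its own linear axis starting at 0; points are the 2 libraries of a group and bars are group means. WT libraries stand higher for TH, GCH1, SLC6A2 and SCG2 and KO libraries for DBH, CHGA and CHGB. CHGB, DDC, SLC18A1 and SLC18A2 remain below 1 CPM in all 8 libraries.

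Under Nutlin-3a the same 4 genes were lower and the same 3 higher in KO cells, where 30.4% of all tested genes were lower, 32.7% higher and 63.1% called in either direction. Libraries did not overlap for 7 of the 8, beside 79.1% of all tested genes. TH had 7443 and 6344 reads in WT Nutlin-3a and 455 and 429 in KO Nutlin-3a libraries, or 237 ± 12.2 against 12.6 ± 0.380 CPM. Its log2 fold change of -4.23 (SE 0.06, edgeR adjusted p = 2.0e-19) was smaller in size than under DMSO. SLC6A2, the reuptake carrier, had 26 and 34 reads in WT and 13 and 11 in KO Nutlin-3a libraries, and its gap was narrower here, at -1.59 (SE 0.37, edgeR adjusted p = 0.00114). GCH1 differed by -0.86 and SCG2 by -0.82 on the log2 scale, both called. DBH had 10 and 26 reads in WT and 1311 and 928 in KO Nutlin-3a libraries, a log2 fold change of 5.67 (SE 0.25, edgeR adjusted p = 2.9e-09). CHGA had 4 and 12 reads in WT and 884 and 663 in KO Nutlin-3a libraries, a log2 fold change of 6.30 (SE 0.22, edgeR adjusted p = 1.9e-14). Both genes were thus near the limit of the assay in WT cells with and without Nutlin-3a. CHGB had 4 and 2 reads in WT and 31 and 28 in KO Nutlin-3a libraries, which differed by 2.98 (SE 0.53, edgeR adjusted p = 8.8e-05). Since CHGB passed the low-count filter only through its KO libraries, its place among the higher genes is no support here either. Without the 3 doubtful libraries the values were -4.22 for TH, -0.80 for GCH1, 5.23 for DBH, -1.79 for SLC6A2, 5.77 for CHGA, 3.47 for CHGB and -0.76 for SCG2, all called by edgeR.

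The response to Nutlin-3a in WT cells addresses what 12 h of the drug did to these genes where FAM193A is intact. No group lacked p53, so the part of p53 in it was not tested. TH, SLC6A2 and SCG2 fell and none of the 8 tested genes rose, where over all tested genes 29.2% fell, 29.4% rose and 58.6% were called in either direction. Libraries did not overlap for 6 of the 8, beside 76.2% of all tested genes. TH went from 479 ± 2.54 to 237 ± 12.2 CPM, 2.02-fold lower (log2 fold change -1.02, SE 0.05, edgeR adjusted p = 2.1e-12), and each treated library lay well under each control. SLC6A2 went from 3.37 ± 0.202 to 1.04 ± 0.258 CPM, 3.25-fold lower (log2 fold change -1.70, SE 0.28, edgeR adjusted p = 3.5e-05). SCG2 had 5161 and 4448 reads with Nutlin-3a and fell by only 0.30 on the log2 scale (SE 0.06, edgeR adjusted p = 0.000335). GCH1, with 583 and 505 reads, differed by 0.05 with a 95% interval from -0.14 to 0.25. The genes that were barely expressed in WT cells could not be resolved: the log2 difference was 0.28 for DBH (95% interval -0.95 to 1.51), -0.73 for CHGA (-1.77 to 0.31), -1.07 for CHGB (-2.52 to 0.38) and 0.35 for SLC18A2 (-0.77 to 1.47). CHGA rests on 4 reads in replicate 1 and 12 in replicate 2 of WT Nutlin-3a, and leaving out replicate 2 gave -1.77, a called fall (edgeR adjusted p = 0.0248), while leaving out replicate 1 gave -0.06. Without the 3 doubtful libraries TH was at -1.04, SLC6A2 at -1.50 and SCG2 at -0.30, all called by edgeR.

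In KO cells the same treatment gave another pattern. TH, SLC6A2 and SCG2 rose and CHGA fell, beside 18.1% of all tested genes higher, 20.6% lower and 38.7% in either direction. Libraries did not overlap for 6 of the 8, beside 71.5% of all tested genes. TH moved little in absolute terms, from 10.3 ± 0.829 to 12.6 ± 0.380 CPM (log2 fold change 0.29, SE 0.08, edgeR adjusted p = 0.00592). That rise was lost without KO DMSO replicate 1 (0.21, edgeR adjusted p = 0.111) and without KO Nutlin-3a replicate 2 (0.26, edgeR adjusted p = 0.0609). SLC6A2 went from 0.0798 ± 0.0338 to 0.342 ± 0.0159 CPM, from 6 reads over 2 libraries to 24, a log2 fold change of 2.03 (SE 0.58, edgeR adjusted p = 0.00944). Without KO DMSO replicate 1 it was 1.68 and no longer called (edgeR adjusted p = 0.073), so that 1 and not 3 of the genes was then higher. None of the 3 limma fits on RPKM called it either, with log2 fold changes down to 0.071 and adjusted p up to 0.381. SCG2 had 2883 and 2653 reads with DMSO and 3508 and 3058 with Nutlin-3a, and it rose by 0.33 on the log2 scale (SE 0.06, edgeR adjusted p = 0.000501).

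The genes that were high in KO cells did not share a response. CHGA dropped from 31.6 ± 0.678 to 22.0 ± 2.88 CPM, with both treated libraries below both controls (log2 fold change -0.52, SE 0.10, edgeR adjusted p = 0.000426). With limma on log2(RPKM + 0.1) that fall was not called (adjusted p = 0.218), and with a pseudocount of 1 it was (adjusted p = 0.00843). DBH stayed at 30.6 ± 1.77 and 31.7 ± 5.45 CPM with overlapping libraries, a log2 difference of 0.05 (95% interval -0.24 to 0.35). GCH1, at 8.97 ± 1.07 and 10.3 ± 0.354 CPM, differed by 0.19 (95% interval -0.03 to 0.41) and CHGB by 0.68 (95% interval -0.11 to 1.47). Without the 3 doubtful libraries TH was at 0.28, SLC6A2 at 2.09, SCG2 at 0.37 and CHGA at -0.38, all called by edgeR, and DBH at 0.23 was called as well (edgeR adjusted p = 0.00901).

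**Figure D3:**
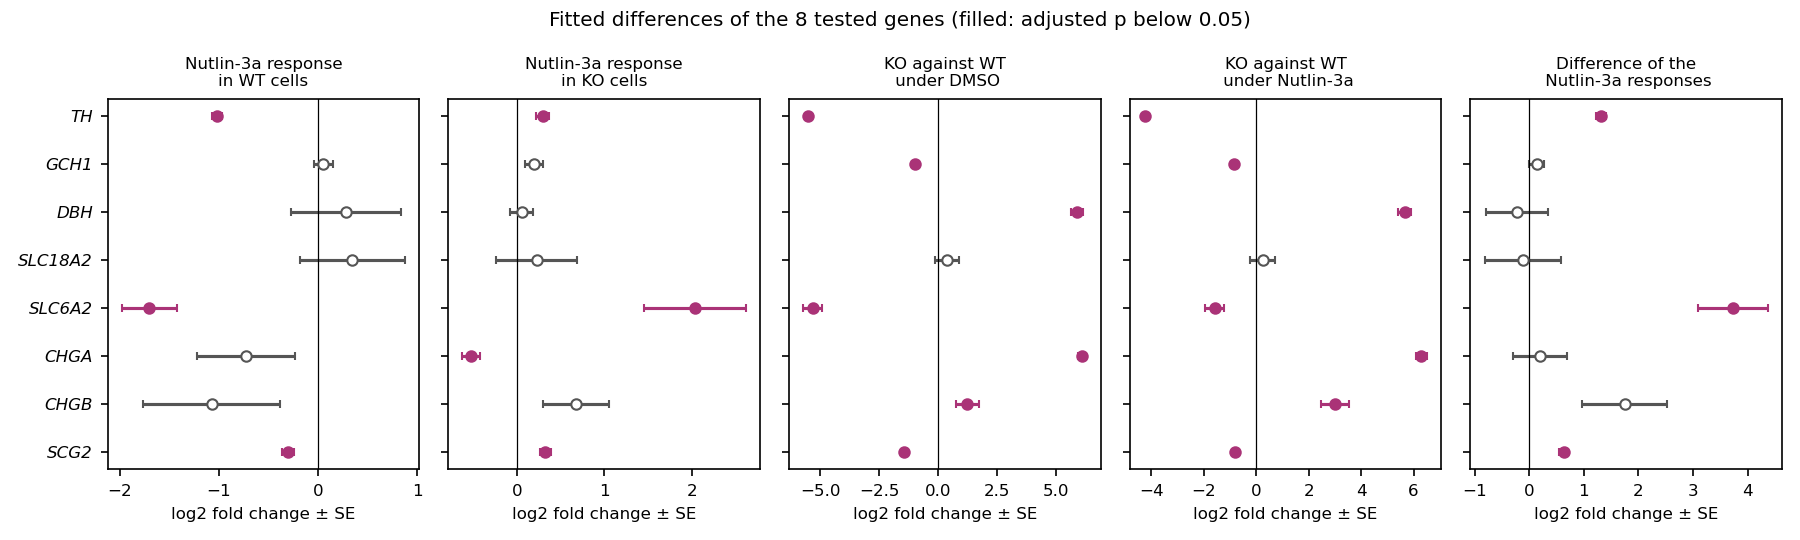
Fitted log2 fold changes (points) with their SE (bars) for the 8 tested genes in the 5 comparisons, each panel on its own scale; filled points passed an edgeR adjusted p of 0.05. TH, SLC6A2 and SCG2 lie left of 0 in the WT response and right of 0 in the KO response, and the last panel shows their difference between genotypes at 1.31, 3.74 and 0.63.

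The difference between the genotypes' responses was tested directly. It was called for TH, SLC6A2 and SCG2 and for no other of the 8 genes, beside 14.2% of all tested genes with a more positive response in KO cells and 13.4% with a more negative one. TH responded 1.31 log2 units more positively in KO than in WT cells (SE 0.09, edgeR adjusted p = 1.3e-08), since it fell in WT and rose slightly in KO cells. SLC6A2 differed by 3.74 (SE 0.64, edgeR adjusted p = 0.000233) and SCG2 by 0.63 (SE 0.09, edgeR adjusted p = 4.2e-05). These 3 genes started from a lower level in KO cells, TH 46.5-fold, SLC6A2 40.0-fold and SCG2 2.73-fold, and Nutlin-3a brought the genotypes closer without reversing their order in any library. The size of the SLC6A2 difference rests on 2 and 4 reads in KO DMSO libraries. Over 17 other settings it ran from 0.51 to 4.23. CHGB reached 1.75 (SE 0.79) without passing the test (edgeR adjusted p = 0.111), and GCH1, DBH, SLC18A2 and CHGA lay between -0.23 and 0.21. Without the 3 doubtful libraries the 3 called differences were 1.31, 3.59 and 0.67. The 5 comparisons share libraries, so their values for a gene are not independent of each other.

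MDM2, the target of Nutlin-3a and itself a p53 target, rose 24.4-fold in WT and 10.4-fold in KO cells, a difference of -1.23 (SE 0.07, edgeR adjusted p = 8.2e-10). For CDKN1A the difference was -0.27 (SE 0.07, edgeR adjusted p = 0.00942). The part of a weaker drug response in the differences for TH, SLC6A2 and SCG2 was not tested.

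Other genes of the pathway were read from 5 lists with 47 genes in all, 39 of them tested. The lists were chosen with earlier results of these data known. Of 6 genes of tetrahydrobiopterin supply, all tested, 3 were lower and 1 was higher in KO DMSO cells, with a median log2 fold change of -0.01, beside 30.1% lower and 31.4% higher over all tested genes. SPR, which makes the finished cofactor, had 463 and 432 reads in WT DMSO and 249 and 272 in KO DMSO libraries, so it was lower in both KO libraries (log2 fold change -1.12, SE 0.10, edgeR adjusted p = 1.4e-08). PTS, the middle enzyme, was at -0.20 and QDPR, which recycles the cofactor, at 0.31. The remaining lower gene, GCHFR, had 15 and 21 reads in WT DMSO and 7 and 12 in KO DMSO libraries. Its KO libraries alone would not have met the low-count filter, so its place in the count of lower genes is no support. PTS was not called without WT DMSO replicate 1 or KO DMSO replicate 2, nor in any of the limma fits (adjusted p up to 0.201 over the alternatives), and upper-quartile scaling gave 3 higher genes of this list in place of 1. With Nutlin-3a, 2 of the 6 fell in WT cells, QDPR by 0.21 and PCBD1 by 0.19 on the log2 scale, and none was called in KO cells. The PCBD1 call (edgeR adjusted p = 0.0481) was lost in 14 of 18 other settings, with adjusted p up to 0.362, and the count of lower genes of this list ran from 0 to 4 over them.

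Of 8 genes of catecholamine handling, 5 were tested and all 5 differed between genotypes under DMSO, 2 higher and 3 lower, with a median of -0.71, where 61.5% of all tested genes differed. PNMT, which methylates noradrenaline to adrenaline, had 163 and 169 reads in WT DMSO and 30 and 31 in KO DMSO libraries (log2 fold change -2.78, SE 0.20). CYB561, the granule membrane cytochrome that supplies DBH with electrons, had 590 and 572 reads in WT DMSO and 128 and 123 in KO DMSO libraries (log2 fold change -2.54, SE 0.11). SLC29A4, a plasma membrane monoamine transporter, was the reverse, with 626 and 519 reads in WT and 3493 and 3829 in KO DMSO libraries (log2 fold change 2.34, SE 0.08). Thus the cofactor supplier of DBH was low where DBH itself was high, and SLC29A4 was high where the reuptake carrier SLC6A2 was low. None of the 5 was called in the WT response, where the smallest p was that of MAOA (edgeR adjusted p = 0.0570).

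Of 9 other granule cargo and processing genes, 6 were tested, and 3 were higher and 1 was lower in KO DMSO cells (median 0.15), beside the same 31.4% and 30.1%. SCG3, which binds CHGA to the granule membrane, had 2 and 3 reads in WT DMSO and 71 and 78 in KO DMSO libraries (log2 fold change 4.50, SE 0.43, edgeR adjusted p = 4.8e-08). It passed the low-count filter only through its KO libraries, so its place among the higher genes is no support. VGF, a secreted granin, was lower, from 262 ± 7.81 to 74.8 ± 6.05 CPM (log2 fold change -1.81, SE 0.10), and PAM, which amidates peptides, was higher by 0.31. Nutlin-3a raised VGF in both genotypes, by 1.04 in WT and 1.66 in KO cells, and CPE, a prohormone carboxypeptidase, by 1.17 and 0.85. These 2 genes therefore rose in WT cells in which SCG2 fell.

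Of 14 genes of the granule membrane and release, 13 were tested, and 8 were higher and 2 were lower in KO DMSO cells, with a median of 0.53, beside 31.4% higher and 30.1% lower over all tested genes. SYT7, a calcium sensor of exocytosis, had 40 and 48 reads in WT DMSO and 857 and 858 in KO DMSO libraries (log2 fold change 3.95, SE 0.13, edgeR adjusted p = 1.2e-14). SYT4, another synaptotagmin, differed by 4.61 (SE 0.22) and RAB27B, a small GTPase of granule docking, by 3.90 (SE 0.20). All 3 were at 1.5 CPM or less on average in WT DMSO cells. In WT cells Nutlin-3a lowered SNAP25, a release SNARE, by 1.37 and RAB27A by 1.19 on the log2 scale and raised SYT1 by 0.53. In that response 3 of the 13 rose and 4 fell, beside 29.4% and 29.2% of all tested genes. In KO cells 5 rose and 3 fell, beside 18.1% and 20.6%. PTPRN, 1 of those 5, passed the low-count filter only through KO Nutlin-3a libraries, so its place in that count is no support.

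**Figure D4:**
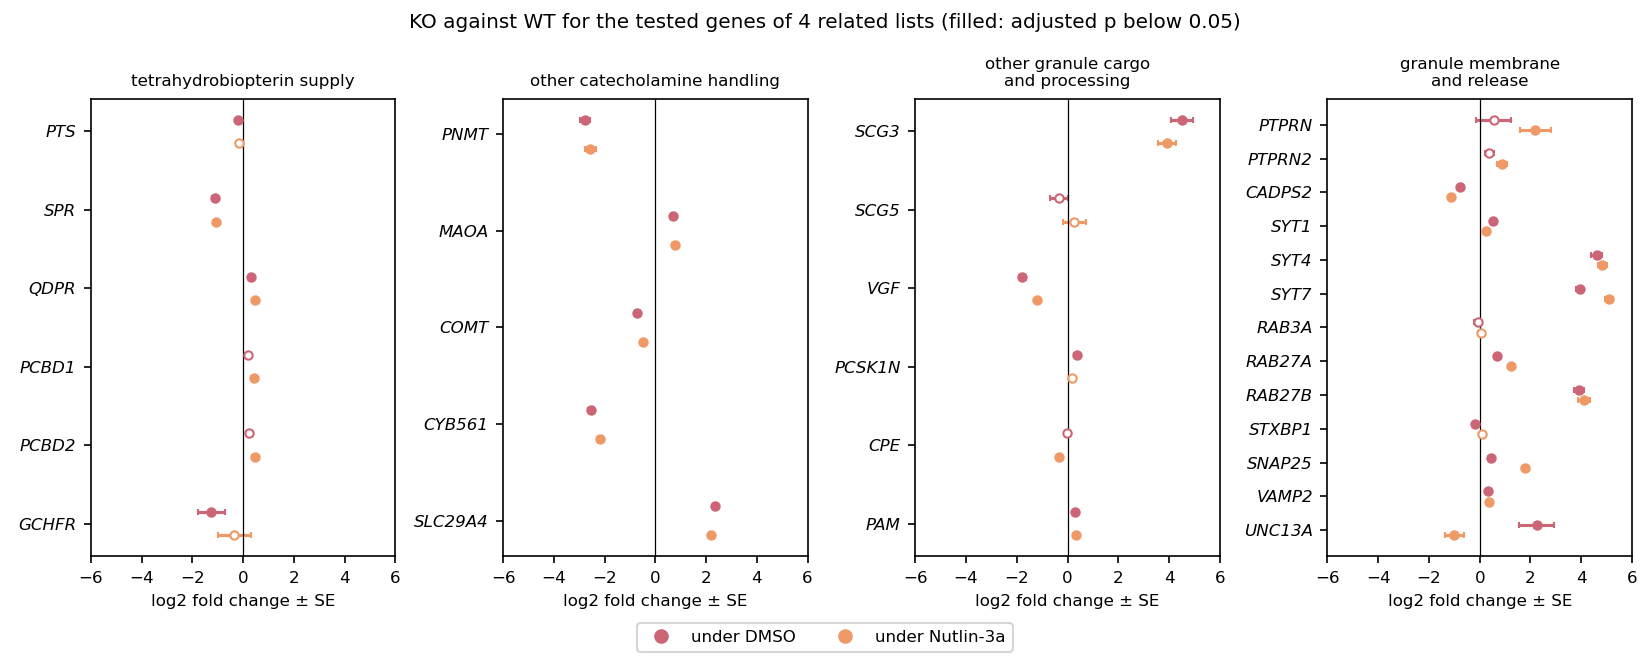
Log2 fold change (points) with SE (bars) of KO against WT cells for the tested genes of 4 related lists, under DMSO and under Nutlin-3a; filled points passed an edgeR adjusted p of 0.05. SCG3, SYT4, SYT7 and RAB27B lie at 3.90 or above under both treatments, and PNMT and CYB561 at -2.17 or below.

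Of 10 transcription factors of the sympathoadrenal lineage, 9 were tested, and 6 were higher and 2 were lower in KO DMSO cells (median 0.49), beside 31.4% higher and 30.1% lower over all tested genes. PHOX2A, a homeobox factor of the noradrenergic fate, was higher by 2.27 on the log2 scale (SE 0.07, edgeR adjusted p = 6.0e-15), at 61.7 against 12.8 CPM. TH was thus low in cells in which PHOX2A was high. In the WT response PHOX2A fell by 0.70, ISL1 by 0.81 and GATA2 by 0.59 on the log2 scale, and 1 of the 9 rose. In KO cells 1 rose, GATA3 by 0.45, and 3 fell, among them GATA2 by 0.42 and PHOX2A by 0.27.

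The genes with the most similar course over the 8 libraries were found by the root mean square difference of centred log2 CPM among 10506 compared genes. For TH they were PGM5 (0.24 log2 units), SHOX2 (0.30) and GPC3 (0.35), which were lower in KO DMSO cells by 5.05, 6.23 and 4.74 on the log2 scale. SHOX2 passed the low-count filter only through its WT libraries. PGM5, for instance, had 1272 and 1173 reads in untreated WT, 767 and 644 in treated WT, 43 and 50 in untreated KO and 41 and 32 in treated KO libraries. For DBH they were ABCC8 (0.28), SULT1E1 (0.28) and SCN11A (0.33), and for CHGA KANK4 (0.34), GNAT3 (0.35) and ABCC8 (0.39). ABCC8 had 18 and 17 reads in WT DMSO and 994 and 997 in KO DMSO libraries. All of these genes were picked for closeness over the same libraries, so their differences between genotypes follow from the choice and are no support. The 8 points compared share the genotype and treatment groups, and 0 of the 3 genes nearest to CHGA kept that place without WT Nutlin-3a replicate 1.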

How the data were processed

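Poly(A) RNA of 8 CHP212 libraries was made with a strand-specific TruSeq kit, per the labels' protocols. Alignment to GRCh37 (hg19) used TopHat2 2.1.1 on Bowtie2 2.2.9.0 and counting used HTSeq 0.8.0, going by tool names in the submitters' processing notes. The sources used here do not state the gene annotation or the strand option, so overlapping genes may share or lose reads. The authors deposited whole read counts per gene and RPKM values, reads scaled to gene length and depth.

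From the counts, edgeR 4.0.16 (R 4.3.3) fitted 4 group means to 8 libraries by robust quasi-likelihood after filterByExpr and TMM, with 4 residual degrees of freedom. The F test was adjusted by Benjamini-Hochberg over 15879 tested genes, threshold 0.05. Deposited RPKM gave levels between genes. The genes and the lists were chosen with earlier results of these data known. Every one of the 10 genes is named, and each list gives up to 3 called genes with the smallest p per comparison; some are left out for length, and some list genes are not reported here. The genes nearest to TH, DBH and CHGA had a mean log2 CPM of at least 1. Alternatives were DESeq2 1.42.0, limma 3.58.1 on log2(RPKM + 0.1) or log2(RPKM + 1), other scalings and filters, a replicate block and libraries left out. The test was checked on simulated data.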

Additional observations from a re-analysis of the deposited data

Results flagged for a closer look

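The response to Nutlin-3a differed between KO and WT cells by the edgeR interaction test for 3 of the 10 genes, with the values given above, namely TH at 1.31, SLC6A2 at 3.74 and SCG2 at 0.63 log2 units (KO minus WT). The SLC6A2 value rests on few reads in KO DMSO cells, as given above. Among the related genes named, the granule cargo genes CPE (-0.32, edgeR adjusted p = 0.00157) and VGF (0.62, edgeR adjusted p = 0.00990) differed although both rose in both genotypes. SNAP25 differed by 1.35, with a response of -1.37 in WT and -0.02 in KO cells, and SYT7 by 1.15, with -1.19 and -0.04. RAB27A differed by 0.58, PHOX2A by 0.43 and ISL1 by 0.52, each with a larger fall in WT than in KO cells. Of 17 other settings, the call was lost in 5 for ISL1 (adjusted p up to 0.101), in 2 for SYT7 (up to 0.328), in 2 for DBH-AS1 (up to 0.0531) and in 1 for PHOX2A (0.0536). DBH-AS1, the antisense gene at DBH, differed by -1.13 (edgeR adjusted p = 0.00746), with a response of 1.42 in WT and 0.29 in KO cells. DBH had the same signs, at 0.28 and 0.05, and was not called in either genotype.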

How the results depend on the processing

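The 10 genes gave 24 called results, and of their 429 values under other settings 412 kept direction and call, 17 kept direction only and 0 reversed. Counts of the genes called moved by over 1.5 times in the KO response: with limma on log2(RPKM + 0.1), filtered or not, 0 in place of 1 was lower, and with each library left out in turn 1 to 3 were higher. The cause was not tested. In the other comparisons the counts moved by at most 1 gene, from 3 to 2 higher between genotypes under DMSO and from 3 to 4 lower in the WT response. In results that were not called, some signs turned. Under limma on log2(RPKM + 1) the interaction was 0.019 for DBH, 0.0012 for SLC18A2 and -0.36 for CHGA. Without the 3 doubtful libraries it was -0.32 for CHGA, SLC18A2 in the KO response was at -0.22, and DBH-AS1 between genotypes under Nutlin-3a was at 0.079. With 1 library left out, DBH ran from -0.62 to 0.89 in the WT response, from -0.13 to 0.21 in the KO response and from -0.82 to 0.68 in the interaction. SLC18A2 ran from -0.24 to 0.60 in the KO response, from -0.22 to 0.62 between genotypes under Nutlin-3a and from -0.58 to 0.26 in the interaction. The CHGA interaction ran from -0.44 to 1.25, and DBH-AS1 between genotypes under Nutlin-3a from -0.38 to 0.14. The lone sample of a group was then assumed to vary like the others. Replicate numbers did not pair the libraries (correlations of deviations from -0.02 to 0.23), and a replicate block changed no call of the 10 genes, with TH at -5.54 under DMSO. Over all tested genes, 1312 in place of 2120 had a lower interaction with limma on log2(RPKM + 0.1) without a filter. List counts that moved by over 1.5 times were all 5 or fewer, such as 5 against 3 higher granule membrane and release genes in the KO response without KO DMSO replicate 1, and 1 against 3 higher tetrahydrobiopterin genes between genotypes under DMSO with no low-count filter.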

Other observations

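UNC13A, a priming factor for vesicle release, was picked out after its values were seen. It had 2 and 2 reads in untreated WT, 38 and 37 in treated WT, 8 and 17 in untreated KO and 21 and 24 in treated KO libraries. It rose with Nutlin-3a in WT cells (log2 fold change 4.17, SE 0.56, edgeR adjusted p = 3.8e-06), while its log2 difference in KO cells was 0.93 (edgeR adjusted p = 0.0958). KO cells thus held more of it with DMSO and less with Nutlin-3a than WT cells did, and the responses differed by -3.24 (SE 0.77, edgeR adjusted p = 0.00414).

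Neighbouring genes were looked at after the values above were known, as the 3 protein-coding genes on each side in the GENCODE 29 order. Beside TH, 3 of 5 tested neighbours were lower in KO DMSO cells, but all 3 passed the low-count filter only through WT libraries, so that count is no support. INS, the insulin gene, had 37 and 48 reads in WT DMSO and 0 and 1 in KO DMSO libraries. C11orf21 had 57 and 45 reads against 0 and 0, at least 42.9-fold lower with 3 reads over the KO group as the limit, and TSPAN32, a tetraspanin gene, had 189 and 141 against 1 and 3. On the INS side IGF2 was higher by 1.37 on the log2 scale (SE 0.09) and INS-IGF2 was at 0.73 without being called (edgeR adjusted p = 0.365). Beside DBH, 3 of 6 were higher and 2 were lower. Among the 3 higher, FAM163B passed the low-count filter only through KO libraries, so its place in that count is no support. FAM163B had 2 and 1 reads in WT DMSO and 25 and 39 in KO DMSO libraries, and ADAMTSL2 had 14 and 7 against 237 and 224 (log2 fold change 4.11, SE 0.26), while SLC2A6 next to them was lower by 0.77. Beside the other genes the tested neighbours counted 4 higher and 1 lower of 6 for CHGA, 0 and 3 of 5 for CHGB, 2 and 2 of 5 for SCG2, 0 and 1 of 6 for GCH1, 0 and 2 of 3 for SLC6A2, 0 and 1 of 2 for SLC18A2 and 3 and 1 of 4 for DDC. Of the DDC neighbours counted as higher, VWC2 had 0 reads in every WT library. It passed the low-count filter only through KO libraries, so its place in that count is no support. Over all tested genes 61.5% differed between these groups, and no test of neighbourhood was made.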
